A study of Homo sapiens with 12 samples.

Results

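The ATP-binding cassette (ABC) transporter genes were followed as 42 genes of the 19775 genes measured, chosen by name: every gene whose symbol in the array annotation was ABC, a subfamily letter from A to G and a number. They comprised 11 ABCA, 8 ABCB, 11 ABCC, 3 ABCD, 1 ABCE, 3 ABCF and 5 ABCG genes. The rule reads symbols, not values, and which genes to follow was chosen with earlier results of these data known. Each gene was represented by 1 probe set, the one with the highest mean over all 12 arrays among the probe sets assigned to that gene alone, and 29 of the 42 genes had other probe sets as well. ABCA10 and ABCC6, which also carry such symbols, were not analysed here.

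The arrays measured total RNA of 4 descendants of the human breast cancer line SKBR-3, in which ERBB2 (HER2) is amplified, with 3 biological replicates of each line. SKR6LR cells are SKR6 cells kept for months under rising doses of lapatinib, which inhibits the kinases EGFR and HER2, beginning at 0.2 µM and ending at 5 µM. SKR6CA cells carry a retrovirus that expresses constitutively active RELA (p65), a subunit of the transcription factor NF-kB, and SKR6-Vector cells carry the empty retroviral vector pQCXIP. Puromycin was used to select both transduced lines. SKR6 cells, from which all 3 were made, are SKBR-3 cells sorted for high HER2, so all 4 lines share that sort. All were grown for 48 h in RPMI medium with 10% fetal bovine serum before RNA was taken, and the protocol adds that cells it spells SKLR were maintained in 0.2 µM lapatinib. If these were the SKR6LR cells, then the effect of months of selection and the presence of the drug cannot be told apart. Whether a line came from 1 clone, and whether its replicates were derived separately, is not given, so the p-values measure only the spread among these cultures.

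ABC proteins share nucleotide-binding domains that use ATP, and most of them move substrates across a membrane. ABCB1 (P-glycoprotein), ABCG2 (breast cancer resistance protein) and the ABCC multidrug resistance proteins pump drugs and drug conjugates out of cells, and lapatinib is itself known as a substrate and inhibitor of ABCB1 and ABCG2. The ABCA genes and ABCG1 mainly move lipids, several ABCB and the ABCD genes work in mitochondria, lysosomes and peroxisomes, and ABCE1 and the ABCF proteins have no membrane domain and act with ribosomes.

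The SKR6LR arrays stood apart from the rest. Across all genes each correlated with the arrays of SKR6CA, SKR6-Vector and SKR6 at 0.914 to 0.933, against 0.988 to 0.990 between those 3 lines, and their replicate SD was 0.209 on the log2 scale against 0.0958 to 0.107 in the other lines. SKR6LR replicate 3 also had the largest gap between 3′ and 5′ actin control probe sets, a measure of RNA integrity, at 2.32, against 1.03 to 1.73 on the other arrays. Of 11 luminal epithelial markers 3 were higher and 5 lower in SKR6LR than in SKR6. Their median log2 difference was -0.06, and that of ERBB2 was -1.38. The mean log2 level of these markers per array was 11.49 to 11.69 in SKR6LR and 12.39 to 12.41 in SKR6. Of 6 measured basal and myoepithelial markers 4 were higher and 0 lower in SKR6LR, with a mean level of 8.76 to 9.04 in SKR6LR, against 5.51 to 5.56 in SKR6CA, 6.07 to 6.12 in SKR6-Vector and 5.32 to 5.47 in SKR6. Of 9 fibroblast markers 2 were higher in SKR6LR (COL3A1 by 4.92), of 6 endothelial markers 2 were higher and 1 lower (CDH5 higher by 3.83), of 5 leukocyte markers 1 was higher (CD14 by 1.72), and the 5 hepatocyte markers were not called. The part of these shifts in the ABC results was not tested. In bulk RNA, fewer cells of a type and less RNA per cell cannot be told apart. The probe set for RELA, the gene carried by the virus of SKR6CA, differed by -0.06 between SKR6CA and SKR6-Vector (limma adjusted p = 0.753), and whether it detects the transgene was not tested.

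Values are deposited log2 values from robust multi-array averaging (RMA), so a difference of 1 is a factor of 2 in signal, and levels of different probe sets are not set against each other. Differences were tested in a single limma model of all genes and arrays, with Benjamini-Hochberg adjustment over the 19775 genes. A gene is called higher, lower or changed where the adjusted p was under 0.05. Over the 42 genes the mean over a line's arrays was highest in SKR6LR for 10 genes, in SKR6CA for 5, in SKR6-Vector for 11 and in SKR6 for 16. It was lowest in SKR6LR for 23 genes, in SKR6CA for 7, in SKR6-Vector for 8 and in SKR6 for 4. The same rankings were not counted over all genes, so no background stands beside them. They include genes whose line means barely differed, such as ABCA8, with a range of 0.05. The signal of 23 genes was above the median of the tested genes on at least 3 arrays. The other 19, here called dim, reached this on fewer arrays or none. A gene can pass through the arrays of the line where it is high, as ABCG2 did in SKR6LR. At least 1 of the comparisons of SKR6LR with SKR6, SKR6CA with SKR6-Vector and SKR6-Vector with SKR6 called 28 genes, all 3 called 8 genes, and none called 14, of which 13 were among those 19 dim genes. Singly these comparisons called 52.3%, 26.6% and 25.7% of all genes. How many of all genes were called in at least 1, in all 3 or in none was not counted, so these numbers are not set against a background.

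**Figure D1:**
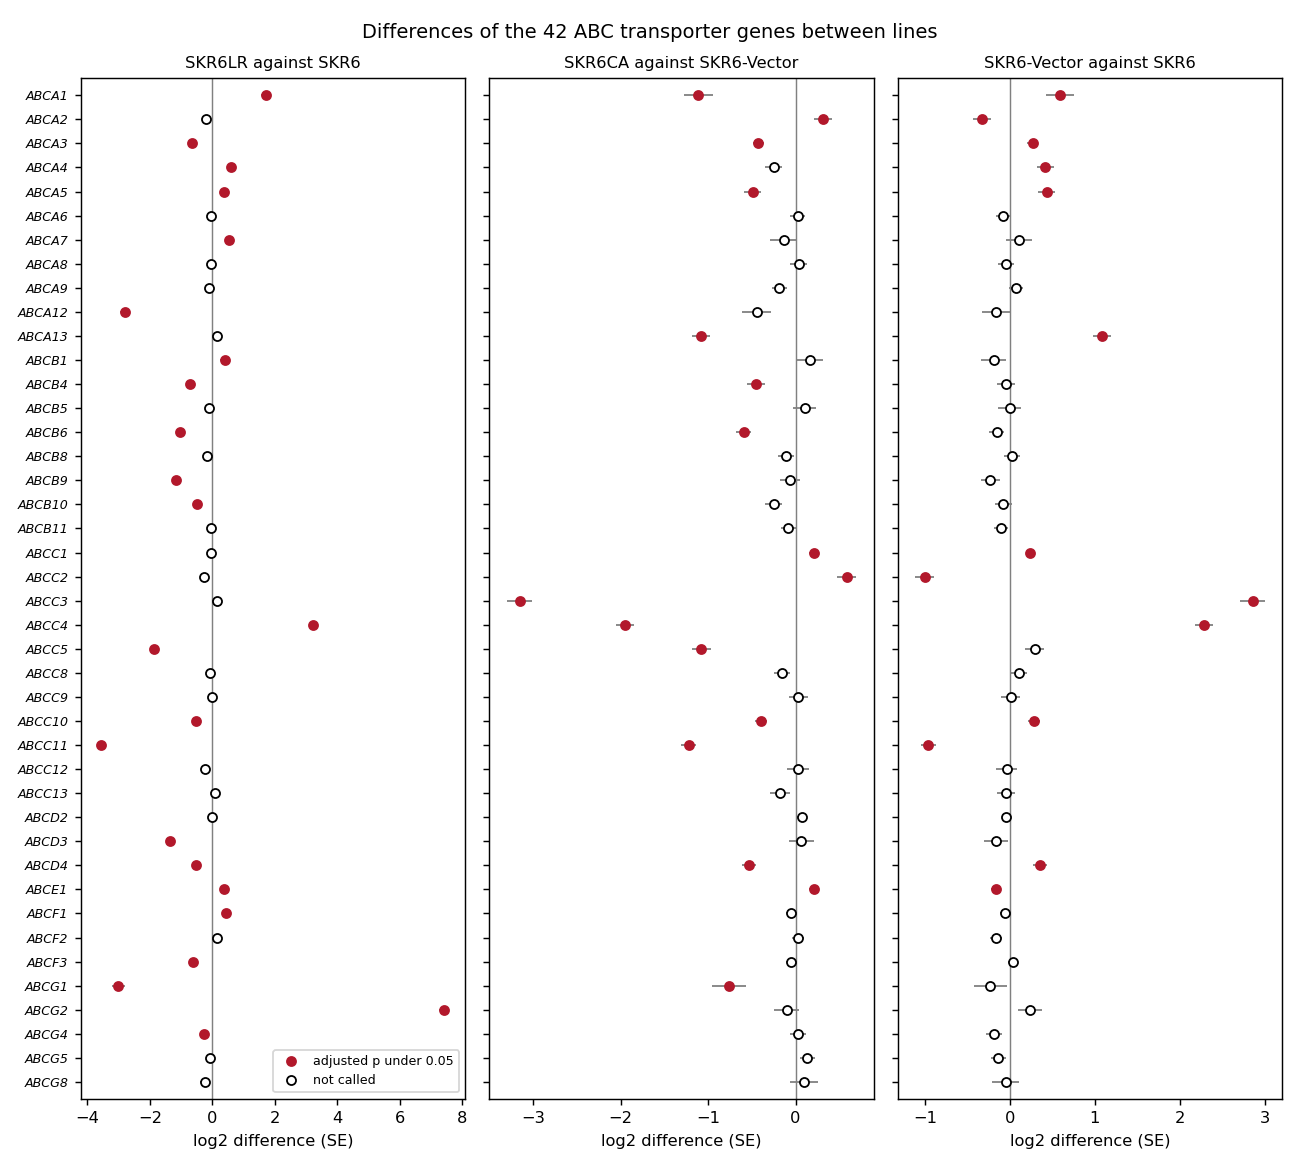
Log2 difference of each of the 42 ABC genes (rows) in SKR6LR against SKR6, SKR6CA against SKR6-Vector and SKR6-Vector against SKR6, with bars of 1 SE from the limma model; filled red points passed an adjusted p of 0.05, and each panel has its own horizontal scale. The widest differences are ABCG2 at 7.40 in SKR6LR, ABCC3 at -3.16 in SKR6CA and ABCC3 at 2.86 in SKR6-Vector.

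The comparison of SKR6LR with SKR6 asks what set the cells selected in lapatinib apart from their parent. ABCG2 rose by 7.40 on the log2 scale, and ABCC4 by 3.21 and ABCA1 by 1.73 were the next largest rises. ABCC11 fell by 3.56, ABCG1 fell by 3.01, ABCA12 fell by 2.80 and ABCC5 fell by 1.87. In all, 9 of the 42 genes were higher and 14 lower. The 23 called are 54.8% of the ABC genes, beside 52.3% of all genes tested, so the share called was close to the background. Over all genes 4223 were higher and 6122 lower, a split that became 5341 and 4871 after cyclic loess scaling, with 11 and 14 ABC genes. By direction 21.4% of the ABC genes and 21.4% of all genes were higher, and 33.3% and 31.0% were lower. The arrays of SKR6LR and SKR6 did not overlap for 25 ABC genes (59.5%), beside 57.9% of all genes. The median difference was -0.10 over the ABC genes and -0.06 over all genes. Called differences of at least 1 on the log2 scale, either way, were found for 10 ABC genes (23.8%), beside 15.6% of all genes.

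Among the drug efflux pumps, ABCG2 had log2 values of 12.41, 12.86 and 12.67 on the SKR6LR arrays, against 5.38, 5.38 and 4.99 on the SKR6 arrays. Its values were 5.38, 5.56 and 5.20 in SKR6CA and 5.55, 5.60 and 5.29 in SKR6-Vector. ABCG2 was thus high on each SKR6LR array, with no overlap, while the arrays of the other 3 lines overlapped one another. The difference from SKR6 was 7.40 (SE 0.142, limma adjusted p = 3.75e-13), and only 1 probe set measures this gene alone. ABCC4 (MRP4), which exports cyclic nucleotides and prostaglandins, had 9.34, 9.44 and 9.32 in SKR6LR and 6.23, 5.87 and 6.38 in SKR6. Its difference was 3.21 (SE 0.107, limma adjusted p = 5.95e-11), and the groups did not overlap. Of its 3 other probe sets, those with differences of 1.01 and 0.48 were also called, and the dimmest gave 0.21 (limma adjusted p = 0.129 over all probe sets).

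ABCB1 gave different sizes on its probe sets. The probe set that represents it had 5.44, 4.84 and 4.77 in SKR6LR against 4.62, 4.65 and 4.60 in SKR6, a difference of 0.39 (SE 0.149, limma adjusted p = 0.0419). SKR6LR replicate 1 was the highest of these arrays, and without it the difference was 0.18 (limma adjusted p = 0.137). The other probe set, dimmer on average, had 6.77, 5.84 and 6.37 in SKR6LR, against 3.51, 3.63 and 3.75 in SKR6. There every SKR6LR array lay far above every SKR6 array, and the difference was 2.70 (SE 0.176, limma adjusted p = 3.23e-08 over all probe sets). On that probe set SKR6CA averaged 3.78 ± 0.06 and SKR6-Vector 3.70 ± 0.17 (SD, n = 3 each).

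On the probe sets that represent them 1 of the 11 ABCC genes, ABCC4, rose in SKR6LR, 3 fell and 7 were not called (beside 21.4% of all genes higher and 31.0% lower). ABCC11, a pump of apocrine glands that determines earwax type, had 4.17, 4.31 and 4.33 in SKR6LR and 7.98, 7.67 and 7.86 in SKR6. The difference of -3.56 (SE 0.0877, limma adjusted p = 3.55e-12) came with no overlap, whereas the other probe set of this gene gave -0.39 (limma adjusted p = 0.00490 over all probe sets). ABCC5 (MRP5), a cyclic nucleotide exporter, had 9.34, 8.80 and 9.25 in SKR6LR and 11.03, 11.01 and 10.96 in SKR6. It fell by 1.87 (SE 0.112, limma adjusted p = 1.68e-08), and its other probe sets gave -1.39 and -0.64, both called. ABCC10 (MRP7) had 8.00, 7.85 and 8.14 in SKR6LR and 8.53, 8.53 and 8.49 in SKR6, a smaller fall of 0.52 without overlap. ABCC1 (MRP1), an exporter of glutathione conjugates, differed by -0.04 (limma adjusted p = 0.601), ABCC2 (MRP2) by -0.27 (0.0549) and ABCC3 (MRP3) by 0.14 (0.471). In SKR6LR 6 genes were uncalled on the probe set that represents them but called on another, with limma p-values adjusted over all probe sets. They were ABCC1 (-0.23, adjusted p = 0.0365), ABCC3 (-0.26, 0.00856, opposite in sign to 0.14), ABCC13 (0.35, 0.0109), ABCB5 (0.24, 0.0158), ABCB8 and ABCF2.

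**Figure D2:**
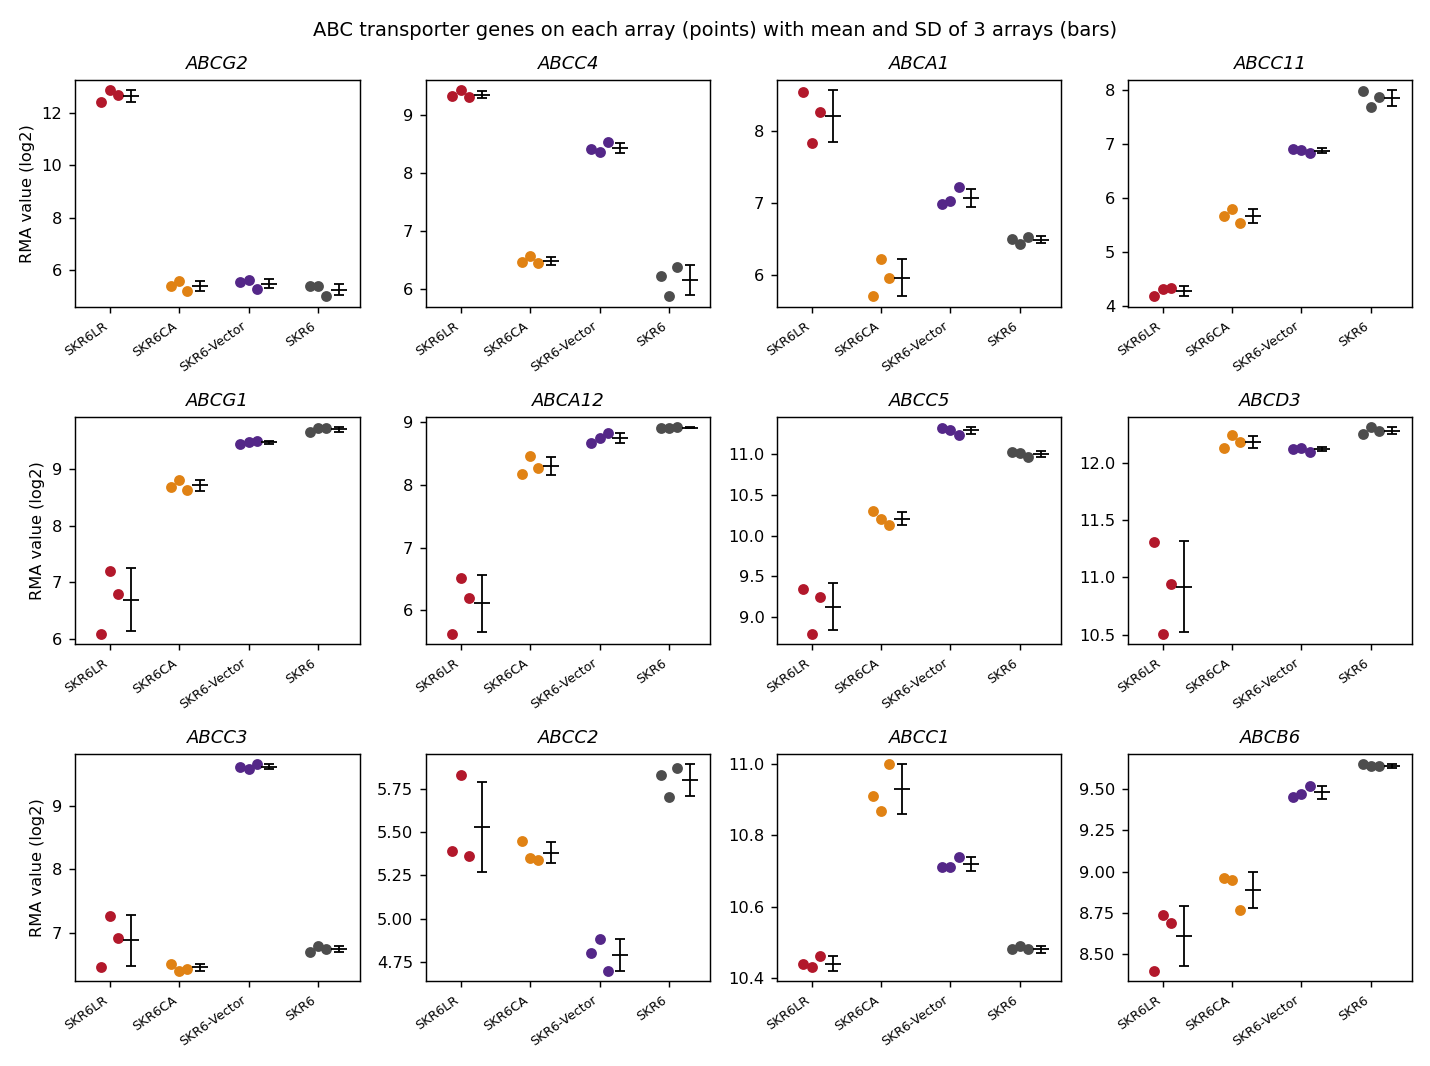
RMA log2 values on each array (points) for 12 ABC genes in SKR6LR, SKR6CA, SKR6-Vector and SKR6, with the mean and SD of 3 arrays beside the points; each panel has its own vertical scale, which does not begin at 0. ABCG2 is near 12.65 in SKR6LR and between 5.25 and 5.48 on average elsewhere, ABCC3 stands high in SKR6-Vector at 9.61, and ABCC11 has a different mean in every line, between 4.27 and 7.84.

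The 4 promoters below belong to the 3 genes that rose most and the 1 that fell most in SKR6LR, and are shown so that the sequence upstream of these genes can be read beside their values. They are RefSeq sequences of build GRCh38.p14, from 250 bases before to 50 bases after the annotated start, written 5′ to 3′ on the gene's strand. Capitals mark GCGTG, the core bound by the aryl hydrocarbon receptor, the GC box GGGCGG and the TATA box TATAAA, on either strand, and no 2 of these matches overlap here.
ABCG2 promoter, chr4:88231577-88231876, minus strand: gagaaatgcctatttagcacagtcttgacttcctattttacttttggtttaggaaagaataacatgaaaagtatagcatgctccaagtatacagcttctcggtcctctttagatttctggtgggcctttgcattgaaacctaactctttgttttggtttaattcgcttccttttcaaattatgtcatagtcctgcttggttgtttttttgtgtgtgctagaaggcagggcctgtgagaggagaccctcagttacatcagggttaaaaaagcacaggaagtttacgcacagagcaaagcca
ABCC4 promoter, chr13:95301402-95301701, minus strand: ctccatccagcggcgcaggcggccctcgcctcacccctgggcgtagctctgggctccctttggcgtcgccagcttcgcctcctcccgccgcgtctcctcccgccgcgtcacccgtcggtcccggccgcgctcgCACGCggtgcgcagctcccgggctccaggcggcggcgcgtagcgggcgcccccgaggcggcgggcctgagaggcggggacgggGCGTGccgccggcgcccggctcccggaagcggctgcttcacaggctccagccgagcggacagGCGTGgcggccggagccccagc
ABCA1 promoter, chr9:104928106-104928405, minus strand: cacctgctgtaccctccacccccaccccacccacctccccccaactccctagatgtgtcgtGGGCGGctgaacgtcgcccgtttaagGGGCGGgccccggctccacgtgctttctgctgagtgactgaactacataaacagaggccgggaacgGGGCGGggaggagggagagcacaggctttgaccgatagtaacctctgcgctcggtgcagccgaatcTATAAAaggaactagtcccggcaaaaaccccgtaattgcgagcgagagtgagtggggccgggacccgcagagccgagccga
ABCC11 promoter, chr16:48247490-48247789, minus strand: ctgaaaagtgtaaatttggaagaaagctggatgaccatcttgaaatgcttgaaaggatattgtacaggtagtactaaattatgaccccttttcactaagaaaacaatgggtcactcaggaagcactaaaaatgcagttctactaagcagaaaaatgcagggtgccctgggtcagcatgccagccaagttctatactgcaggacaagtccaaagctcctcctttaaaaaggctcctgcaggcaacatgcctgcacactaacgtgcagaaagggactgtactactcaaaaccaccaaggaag

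The ABCG2 and ABCC11 windows hold none of the 3 marked motifs and have a GC content of 40.3% and 43.7%. The ABCC4 window holds 3 GCGTG matches at 79.7% GC, and the ABCA1 window holds 3 GC boxes and 1 TATA box at 62.7% GC. RefSeq promoters were matched for 33 of the 42 genes. The median GC content was 61.3% over these and 58.3% over all 27305 promoters of the table. GCGTG was found in 39.4% of these and in 36.3% of all, GGGCGG in 54.5% and 44.6%, TATAAA in 4 of these (12.1%) and in 3264 of all, CCAAT in 18.2% and 35.7%, and the antioxidant element TGACNNNGC in 21.2% and 13.6%. The NF-kB motif was searched in a single form (GGG, any 2 bases, then TTTCC), which was in 0 of the 33 windows and in 1.92% of all. A form this rare cannot show in 33 windows whether it is lacking, and other forms were not searched. All motifs were searched on both strands, and matches of different motifs could overlap. These are letters in 1 window per gene, and genes can use other starts.

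In SKR6LR 4 of the 16 lipid transporters rose, 5 fell and 7 were not called, beside 21.4% of all genes higher and 31.0% lower. ABCA1, which loads cholesterol and phospholipid onto apolipoprotein A1, had 8.54, 7.83 and 8.26 in SKR6LR and 6.50, 6.43 and 6.53 in SKR6. It rose by 1.73 (SE 0.162, limma adjusted p = 1.16e-06) without overlap, a second probe set gave 1.69, and its dimmer pair gave 0.01 and -0.05. ABCG1, which passes cholesterol on to high-density lipoprotein, went the other way, with 6.09, 7.20 and 6.79 in SKR6LR and 9.66, 9.73 and 9.72 in SKR6. It fell by 3.01 (SE 0.196, limma adjusted p = 3.64e-08), its other probe sets gave -1.63, -2.02 and -2.17, all called, and its SKR6LR arrays were spread more widely (SD 0.56) than those of SKR6 (SD 0.04). ABCA12, a glucosylceramide transporter of keratinocytes, had 5.63, 6.52 and 6.19 in SKR6LR and 8.91, 8.91 and 8.92 in SKR6, a fall of 2.80 (SE 0.168, limma adjusted p = 1.64e-08).

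The remaining lipid transporters differed less. ABCA4, the retinal transporter, rose by 0.60 (-0.02 on its other probe set), ABCA7 by 0.55 and the lysosomal ABCA5 by 0.38, and ABCA3, which fills lamellar bodies of the lung with surfactant lipid, fell by 0.67. The phosphatidylcholine transporter ABCB4 fell by 0.73 (-0.17 on its other probe set, not called), and the ABCG1 relative ABCG4 fell by 0.28. The calls of ABCA4, ABCA5 and ABCG4 were lost when SKR6-Vector was the control, with differences of 0.18, -0.05 and -0.09. The ABCG4 call was also lost with group weights (limma adjusted p = 0.087) and without SKR6 replicate 1 (0.071), SKR6 replicate 2 (0.058) or SKR6LR replicate 2 (0.0677). ABCA2, ABCA6, ABCA8, ABCA9, ABCA13, ABCG5 and ABCG8 were not called, with differences between -0.24 and 0.15.

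Of the 7 transporters of organelles 5 fell and 2 were not called in SKR6LR, beside 31.0% of all genes lower. ABCD3, a peroxisomal importer of fatty acyl-CoA, had 11.31, 10.51 and 10.94 in SKR6LR and 12.25, 12.31 and 12.28 in SKR6. It fell by 1.36 (SE 0.143, limma adjusted p = 3.41e-06), and its other probe set also fell, by 0.72. ABCB9, a lysosomal peptide transporter related to TAP1, had 6.31, 6.33 and 5.83 in SKR6LR and 7.23, 7.33 and 7.37 in SKR6, and fell by 1.16 (SE 0.113). Its 2 other probe sets gave -0.64 and -0.30, both called. ABCB6, a porphyrin transporter, had 8.40, 8.74 and 8.69 in SKR6LR and 9.65, 9.64 and 9.64 in SKR6, and fell by 1.03 (SE 0.0843), while its dimmer probe set gave 0.06. None of these 3 genes had overlapping arrays. The mitochondrial ABCB10 fell by 0.48 and the cobalamin transporter ABCD4 by 0.54 (-0.09 on its other probe set), and neither the mitochondrial ABCB8 at -0.18 nor the peroxisomal ABCD2 at -0.02 was called. A second ABCB8 probe set gave -0.52 (limma adjusted p = 0.00283 over all probe sets).

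Of the 4 soluble members 2 rose, 1 fell and 1 was not called, beside 52.3% of all genes called. ABCE1, which splits ribosomes for reuse, rose by 0.37 (SE 0.0557, limma adjusted p = 9.26e-05). ABCF1, which acts in translation initiation, rose by 0.43, ABCF3 fell by 0.63, and ABCF2 differed by 0.14 and was not called. Of the other ABCF2 probe sets 2 were called, at 0.40 and 0.72.

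Genes that work beside the ABC transporters were counted in lists, for which the same 52.3% of all genes is the background. Of the ABC proteins with other symbols TAP1 rose by 2.93 and TAP2 by 2.61, both peptide transporters of antigen presentation, and the chloride channel CFTR was not called. Of 21 nuclear receptors and other regulators of ABC genes 8 rose and 10 fell, with PPARG higher by 2.79, VDR at -1.87, AHRR at -1.30 and SREBF1 at -1.13. Of 27 glutathione and conjugation enzymes, which make substrates of ABCC pumps, 3 rose and 20 fell (median difference -0.58), led by MGST2 at -2.37, GSTM4 at -1.91, GSTK1 at -1.12 and GSTM3 at -1.11. Of 12 peroxisomal genes 1 rose and 11 fell (median -1.01), led by ACOX2 at -3.30, SLC27A2 at -2.14, ACSL1 at -1.40 and ACAA1 at -1.30.

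Uptake transporters and metabolic enzymes were mixed. Of 25 drug uptake and cation transporters 6 rose and 3 fell, with the peptide carrier SLC15A1 at -4.63, the prostaglandin carrier SLCO2A1 at 4.26, SLC15A2 at 3.28 and the nucleoside carrier SLC29A1 at 1.39. Of 12 drug-metabolising cytochromes 4 rose and 3 fell, with CYP1A2 at 4.21, CYP2J2 at -2.88, CYP1A1 at 1.91 and CYP2E1 at 1.15. Of 16 genes of cholesterol handling 9 rose and 5 fell, with STARD4 at 4.57, APOD at -2.52, LCAT at 2.10 and MYLIP at 1.31. Of 14 haem and iron-sulphur genes 2 rose and 7 fell, with UROD at -1.51, ALAD at -1.39, FECH at 1.20 and NFS1 at -0.89. Of 10 ribosome partners 5 rose and 4 fell, with EIF2AK4 at 0.75, PELO at 0.72, HBS1L at -0.57 and ETF1 at 0.49. Of the 4 channel partners of ABCC8 and ABCC9 only KCNJ11 passed the test, at -0.47.

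The comparison of SKR6CA with SKR6-Vector shows how the active p65 line differed from the line that carried the empty vector. ABCC3 fell by 3.16, ABCC4 fell by 1.95, ABCC11 fell by 1.22, ABCA1 fell by 1.11, and ABCA13 and ABCC5 each fell by 1.08. The 4 genes that rose did so by at most 0.59, the value of ABCC2. Both ABCA13 and ABCC2 were among the dim genes. In all 17 ABC genes were called (40.5%), beside 26.6% of all genes: 4 were higher (9.52%, beside 11.7%) and 13 lower (31.0%, beside 14.9%). Arrays did not overlap for 24 ABC genes (57.1%), beside 45.5% of all genes. The median difference was -0.10 over the ABC genes and 0.00 over all genes. Without _x_at and _s_at probe sets, which left 36 ABC genes, 2 were higher and 8 lower, beside 1784 and 2271 of 17100 genes. The median was then 0.03 over the ABC genes and 0.005 over all genes. Called differences of at least 1 were found for 6 ABC genes (14.3%), beside 2.87% of all genes. For several of these genes SKR6-Vector itself differed from SKR6, so each difference is given with its counterpart against SKR6, where 11 ABC genes (26.2%) and 24.3% of all genes were called. There 2 ABC genes were higher, beside 9.97% of all genes, and 9 lower, beside 14.4%. Over all genes 2305 were higher and 2946 lower than in SKR6-Vector, a split that became 3063 and 2389 after median centring, with the ABC counts still 4 and 13.

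ABCC3, which exports glucuronides and bile salts, had 6.52, 6.41 and 6.44 in SKR6CA and 9.61, 9.57 and 9.65 in SKR6-Vector. The difference was -3.16 (SE 0.145, limma adjusted p = 1.69e-08). Against the SKR6 arrays, which had 6.71, 6.80 and 6.75, it was -0.30 and not called (limma adjusted p = 0.178). The 4 other ABCC3 probe sets gave -1.80, -0.60, -0.47 and -0.20 against SKR6-Vector, and the last, the only probe set not of the _s_at or _x_at kind that can match several transcripts, was not called. ABCC4 had 6.46, 6.57 and 6.44 in SKR6CA and 8.42, 8.36 and 8.54 in SKR6-Vector, a difference of -1.95 (SE 0.107, limma adjusted p = 7.46e-08). Of its other probe sets 2 were also lower, at -0.77 and -0.48, and 1 gave -0.01. Against SKR6 it was instead higher by 0.33 (limma adjusted p = 0.0407). ABCA13, one of the longest ABC genes, had 3.29, 3.38 and 3.43 in SKR6CA and 4.25, 4.69 and 4.41 in SKR6-Vector, a fall of 1.08 (SE 0.104, limma adjusted p = 8.60e-06), with -0.36 (called) and 0.13 (not called) on its other probe sets. Against SKR6 the difference was 0.00 (limma adjusted p = 0.997). In all 3 genes SKR6-Vector was the high line of the pair, and its arrays overlapped neither those of SKR6CA nor those of SKR6.

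**Figure D3:**
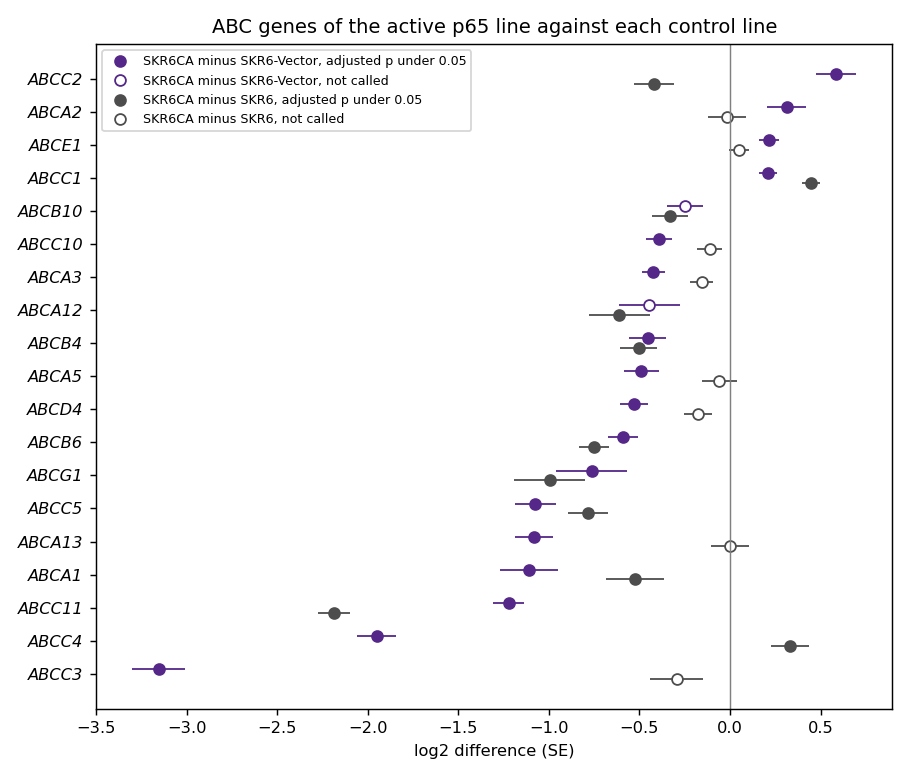
Log2 difference of SKR6CA from SKR6-Vector (purple) and from SKR6 (grey) for the 19 ABC genes called against at least 1 of these lines, with bars of 1 SE; open points were not called. ABCC3, ABCA13 and ABCC4 differ most between the 2 controls, with -3.16, -1.08 and -1.95 against SKR6-Vector and -0.30, 0.00 and 0.33 against SKR6.

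On the probe sets that represent them ABCC11 and ABCC5 were lower in SKR6CA than in both control lines. ABCC11 had 5.65, 5.78 and 5.52 in SKR6CA and 6.90, 6.88 and 6.83 in SKR6-Vector, a fall of 1.22 (SE 0.0877, limma adjusted p = 7.56e-07), and against SKR6 it fell by 2.19. Its other probe set gave 0.13 against SKR6-Vector (limma adjusted p = 0.441 over all probe sets) and 0.03 against SKR6. ABCC5 had 10.30, 10.21 and 10.13 in SKR6CA and 11.32, 11.30 and 11.24 in SKR6-Vector, and fell by 1.08 (SE 0.112, limma adjusted p = 1.76e-05) and by 0.78 against SKR6. Both other probe sets of ABCC5 were also lower against SKR6-Vector, at -0.84 and -0.58, and against SKR6 they gave -0.13 (not called) and -0.40 (called). ABCC10 had 8.40, 8.45 and 8.35 in SKR6CA and 8.77, 8.79 and 8.82 in SKR6-Vector, a fall of 0.39 with -0.35 on its other probe set, and -0.11 against SKR6 (not called).

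Among lipid and organelle transporters ABCA1 had 5.71, 6.22 and 5.96 in SKR6CA and 6.98, 7.02 and 7.22 in SKR6-Vector, a fall of 1.11 (SE 0.162, limma adjusted p = 0.00024), and it fell by 0.52 against SKR6. Its other probe sets gave -1.26 (called), -0.25 and -0.04 against SKR6-Vector. ABCG1 had 8.69, 8.80 and 8.63 in SKR6CA and 9.44, 9.47 and 9.50 in SKR6-Vector, a fall of 0.76 (SE 0.196, limma adjusted p = 0.0113), and it fell by 0.99 against SKR6. Its 3 other probe sets were also lower against SKR6-Vector, at -0.50, -0.57 and -0.74. ABCB6 had 8.96, 8.95 and 8.77 in SKR6CA and 9.45, 9.47 and 9.52 in SKR6-Vector, and fell by 0.59, and by 0.75 against SKR6, with 0.03 and 0.08 on its other probe set. ABCD4 had 8.19, 8.31 and 8.22 in SKR6CA and 8.79, 8.69 and 8.83 in SKR6-Vector, a fall of 0.53 with 0.02 on its other probe set, and -0.18 against SKR6 (not called). For these 4 genes the arrays of SKR6CA and SKR6-Vector did not overlap. ABCA5 fell by 0.49, ABCB4 by 0.45 and ABCA3 by 0.42 against SKR6-Vector, and of these ABCB4 was also called against SKR6, at -0.50, though its only probe set outside the _s_at kind gave 0.10 against SKR6-Vector.

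The 4 genes that were higher in SKR6CA moved little. ABCC2, a pump of the apical membrane, had 5.45, 5.35 and 5.34 in SKR6CA and 4.80, 4.88 and 4.70 in SKR6-Vector, a rise of 0.59 (SE 0.11, limma adjusted p = 0.00153), yet against SKR6 it fell by 0.42. ABCC1 averaged 10.93 ± 0.07 in SKR6CA and 10.72 ± 0.02 in SKR6-Vector (SD, n = 3 each), with 10.87 on the lowest SKR6CA array and 10.74 on the highest SKR6-Vector array, a rise of 0.21 (SE 0.0516, limma adjusted p = 0.00876), and against SKR6 it rose by 0.45. Its second probe set gave 0.49 and 0.57 in the same comparisons. ABCA2 was higher by 0.31 and ABCE1 by 0.21 against SKR6-Vector, and neither was called against SKR6, at -0.02 and 0.05. The ABCA2 call was lost when 1 of SKR6 replicate 3, SKR6-Vector replicates 2 and 3, SKR6CA replicates 1 and 2, and SKR6LR replicate 3 was left out (limma adjusted p = 0.0546 to 0.172), with averaged probe sets (0.13, limma adjusted p = 0.339) and without _s_at probe sets (0.02, 0.938). The ABCE1 call was lost without SKR6-Vector replicate 1 (limma adjusted p = 0.0511) and with averaged probe sets (0.03, 0.76). The second ABCE1 probe set gave -0.16 against SKR6-Vector and -0.27 against SKR6, and only the second was called, so the direction of ABCE1 differed between its probe sets.

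ABCG2 and ABCB1 showed no called difference with active p65. ABCG2 had 5.38, 5.56 and 5.20 in SKR6CA against 5.55, 5.60 and 5.29 in SKR6-Vector, a difference of -0.10 (SE 0.142, limma adjusted p = 0.696) with overlapping arrays. ABCB1 had 4.60, 4.44 and 4.73 in SKR6CA against 4.48, 4.26 and 4.54 in SKR6-Vector, a difference of 0.16 (SE 0.149, limma adjusted p = 0.514), and its other probe set gave 0.08. Both lay in the dim range of these arrays, where RMA values compress small differences.

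Of the 13 genes lower than in SKR6-Vector, 6 were also lower than in SKR6, 1 was higher and 6 were not called. Of the 4 genes higher than in SKR6-Vector, 1 was higher than in SKR6, 1 was lower and 2 were not called. Both comparisons share the SKR6CA arrays. ABCA12 and ABCB10 were called against SKR6 and not against SKR6-Vector, at -0.61 and -0.33, beside -0.45 and -0.25 against SKR6-Vector. ABCD3 differed by 0.07 from SKR6-Vector on the probe set that represents it (limma adjusted p = 0.819), but its other probe set had 9.42, 9.45 and 9.39 in SKR6CA and 7.76, 7.85 and 7.71 in SKR6-Vector. That difference was 1.64 (SE 0.114, limma adjusted p = 5.51e-07 over all probe sets), and it was 1.01 against SKR6.

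**Figure D4:**
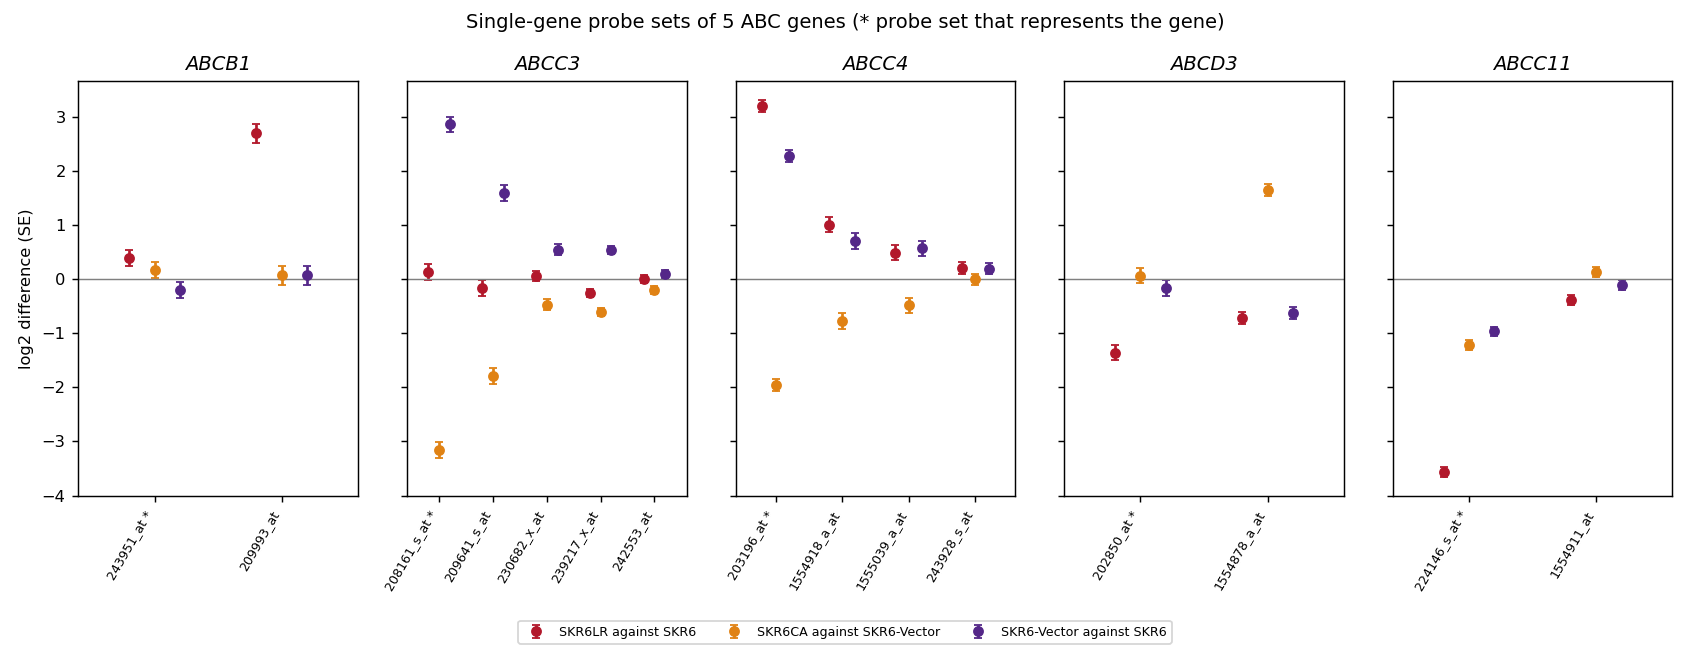
Log2 difference of each single-gene probe set of ABCB1, ABCC3, ABCC4, ABCD3 and ABCC11 in SKR6LR against SKR6 (red), SKR6CA against SKR6-Vector (orange) and SKR6-Vector against SKR6 (purple), with bars of 1 SE and an asterisk on the probe set that represents the gene. ABCB1 in SKR6LR gives 0.39 on one probe set and 2.70 on the other, and ABCD3 in SKR6CA gives 0.07 and 1.64.

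In the accompanying lists 26.6% of all genes is again the background for SKR6CA against SKR6-Vector. The widest differences were among 12 drug-metabolising cytochromes, of which 4 fell and the other 8 were not called, with CYP1A1 at -4.02, CYP1B1 at -2.18 and CYP2J2 at -1.10. Of 25 uptake and cation transporters 5 rose and 7 fell, with SLC15A1 at 1.13, SLCO3A1 at 1.00 and SLC29A2 at 0.97. Of 27 glutathione and conjugation enzymes 5 rose and 7 fell, with GCLM at 0.66, GSTA4 at 0.65 and SULT1E1 at -0.64. Of 21 regulators 7 rose and 5 fell, with PPARG at -1.15, SREBF1 at 0.80 and SREBF2 at 0.70. Of 16 cholesterol genes 4 rose and 4 fell, with PLTP at 1.80, STARD4 at 1.70 and APOD at -1.20. Of 12 peroxisomal genes 3 rose and 6 fell, with ACOX2 at -1.51, EHHADH at -1.32 and PEX7 at 0.53. Of 14 haem and iron-sulphur genes 2 rose and 5 fell, with SLC25A37 at 1.47, ALAD at -0.86 and SLC25A38 at -0.56. Of 10 ribosome partners 3 rose and 3 fell, by 0.42 at most, TAP2 rose by 0.84 while TAP1 and CFTR were not called, and the 4 channel partners were not called.

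The comparison of SKR6-Vector with SKR6 shows how the line with the empty vector, selected in puromycin, differed from its parent. ABCC3 rose by 2.86, ABCC4 rose by 2.28 and ABCA13 rose by 1.08, and ABCC2 fell by 1.01 and ABCC11 by 0.97. Of these ABCA13 and ABCC2 were among the dim genes. In all 14 ABC genes were called (33.3%), beside 25.7% of all genes: 10 were higher (23.8%, beside 12.2%) and 4 lower (9.52%, beside 13.4%). Called differences of at least 1 were found for 4 ABC genes (9.52%), beside 2.66% of all genes. The count of 4 lower was 2 without SKR6 replicate 1 or 3, SKR6-Vector replicate 2 or 3, or SKR6CA replicate 2. Over all genes 2655 were lower, and 1983 to 2475 without 1 of these arrays. A fit of the compared arrays alone gave 11 ABC genes higher and 10 lower, beside 3452 and 3889 of 19775 genes. Arrays did not overlap for 25 ABC genes (59.5%), beside 48.2% of all genes, and the median difference was -0.05 over the ABC genes and -0.02 over all genes. Of the 5 hepatocyte markers SERPINA1 and FGB were higher in SKR6-Vector than in SKR6 (mean level per array 5.52 to 5.59 in SKR6-Vector and 5.02 to 5.24 in SKR6), of the 6 endothelial markers CDH5 was higher by 2.96 (5.72 to 5.83 in SKR6-Vector and 5.35 to 5.40 in SKR6), and of the 11 luminal markers 2 were higher and 1 lower. Of the 6 basal and myoepithelial markers ACTA2 and MYLK were also higher in SKR6-Vector than in SKR6, by 2.16 and 2.22, with differences of -1.38 and -2.35 in SKR6CA against SKR6-Vector. The part of these markers in the ABC results was not tested.

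For ABCC3 the difference of 2.86 (SE 0.145, limma adjusted p = 3.26e-08) separated the SKR6-Vector arrays at 9.57 to 9.65 from the SKR6 arrays at 6.71 to 6.80. The other ABCC3 probe sets gave 1.60, 0.55, 0.54 and 0.10, and the last was not called. For ABCC4 the arrays lay at 8.36 to 8.54 in SKR6-Vector and 5.87 to 6.38 in SKR6, a difference of 2.28 (SE 0.107, limma adjusted p = 1.61e-08). Its other probe sets gave 0.71 and 0.57, both called, and 0.20, not called. ABCA13 had 4.25, 4.69 and 4.41 in SKR6-Vector and 3.36, 3.40 and 3.34 in SKR6, a rise of 1.08 (SE 0.104, limma adjusted p = 8.96e-06), which its other probe sets did not show, at 0.24 and 0.04.

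ABCC2 had 4.80, 4.88 and 4.70 in SKR6-Vector and 5.83, 5.70 and 5.87 in SKR6, a fall of 1.01 (SE 0.11, limma adjusted p = 2.61e-05). ABCC11 had 6.90, 6.88 and 6.83 in SKR6-Vector and 7.98, 7.67 and 7.86 in SKR6, a fall of 0.97 (SE 0.0877, limma adjusted p = 5.90e-06), with -0.10 on its other probe set. These arrays did not overlap. Smaller rises were called for ABCA1 (0.59), ABCA5 (0.43), ABCA4 (0.41), ABCD4 (0.35), ABCC10 (0.28), ABCA3 (0.27) and ABCC1 (0.24), and smaller falls for ABCA2 (-0.33, overlapping arrays) and ABCE1 (-0.16). Of 12 called genes with other probe sets 3 had another called the same way, and the others of ABCA5 (0.19), ABCC10 (0.17), ABCC1 (0.08), ABCA4 (-0.05) and ABCD4 (-0.11) were not called. With averaged probe sets ABCA4 (limma adjusted p = 0.191) and ABCD4 (0.107) lost their calls, and ABCA1 lost its call without SKR6 replicate 2 (0.0592) or SKR6-Vector replicate 3 (0.0737). The ABCE1 call was lost when any 1 array of SKR6, SKR6-Vector or SKR6CA was left out (limma adjusted p = 0.0611 to 0.147), and under cyclic loess (0.131). The ABCA2 call was lost when 1 of SKR6 replicates 1 and 3, SKR6-Vector replicates 2 and 3 and SKR6CA replicate 2 was left out (limma adjusted p = 0.0533 to 0.165), with only the compared arrays (0.0624), with averaged probe sets (0.234) and without _s_at probe sets (0.779). ABCG2 differed by 0.24 (limma adjusted p = 0.281) and ABCB1 by -0.19 (0.413), and neither was called. Genes uncalled on the probe set that represents them but called on another were ABCC5 (0.71), ABCD3 (-0.63) and ABCG1 (-0.61 and -0.68).

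The effect in SKR6LR (against SKR6) and the effect in SKR6CA (against SKR6-Vector) share no arrays, and their difference was tested directly. It was called for 21 of the 42 ABC genes, beside 45.4% of all genes, with 9 positive (beside 19.8%) and 12 negative (beside 25.6%). Over all genes 3916 were positive and 5056 negative, which became 4764 and 4076 after cyclic loess scaling, with 10 and 10 ABC genes. The largest were ABCG2 at 7.50 (SE 0.2, limma adjusted p = 1.70e-11), ABCC4 at 5.16 (SE 0.151, 3.81e-11), ABCC3 at 3.29 and ABCA1 at 2.84. SKR6-Vector itself lay above SKR6 by 2.28 for ABCC4 and 2.86 for ABCC3. Against SKR6 alone ABCC4 differed by 3.21 in SKR6LR and 0.33 in SKR6CA, and ABCC3 by 0.14 in SKR6LR and -0.30 in SKR6CA, comparisons that share the SKR6 arrays. ABCC4 and ABCA1 had risen in SKR6LR and fallen in SKR6CA against SKR6-Vector, whereas ABCC3 was called in SKR6CA against SKR6-Vector and not in SKR6LR. On its probe set outside the _s_at and _x_at kinds the ABCC3 value was 0.20 (limma adjusted p = 0.155). On the negative side were ABCA12 at -2.35, ABCC11 at -2.34, ABCG1 at -2.25, ABCD3 at -1.42 and ABCB9 at -1.09. ABCC11, ABCG1, ABCC5, ABCB6 and ABCA3 fell in both comparisons, and further in SKR6LR by this test, at -0.79 for ABCC5, -0.44 for ABCB6 and -0.24 for ABCA3 (limma adjusted p = 0.0466). With averaged probe sets ABCB6 lost this call (-0.20, limma adjusted p = 0.102). ABCA3 lost it when any 1 array other than SKR6-Vector replicate 2, SKR6CA replicate 3 and SKR6LR replicate 3 was left out (limma adjusted p = 0.0508 to 0.118), under cyclic loess (-0.11, 0.34), with trend and robust fitting (0.0689) and with group weights (0.0892). For ABCB4 (-0.28), ABCC10 (-0.12) and ABCD4 (-0.01), which also fell in both, the difference was not called. ABCB1 gave 0.23 (limma adjusted p = 0.416), and 1.43 (limma adjusted p = 0.000117) when the mean of its probe sets stood for the gene.

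With SKR6-Vector in place of SKR6 as the control, SKR6LR had 9 ABC genes higher and 16 lower, together 59.5%, beside 50.2% of all genes called. Arrays did not overlap for 28 ABC genes, beside 55.4% of all genes, and 8 called differences were at least 1, beside 15.0%. ABCG2 was then higher by 7.16 and ABCC4 by 0.92, and ABCC3 was lower, at -2.72. These values share the SKR6-Vector arrays with the comparisons above.

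The 14 genes called in none of the 3 comparisons were ABCA6, ABCA8, ABCA9, ABCB5, ABCB8, ABCB11, ABCC8, ABCC9, ABCC12, ABCC13, ABCD2, ABCF2, ABCG5 and ABCG8. They include the bile salt pump ABCB11, the sterol pair ABCG5 and ABCG8, the potassium channel subunits ABCC8 and ABCC9 and the pseudogene ABCC13. All but ABCF2 were dim, so a small difference may not have been detectable. Of 5 pairs of ABC genes that neighbour each other in the genome, ABCC11 and ABCC12 had differences of -3.56 and -0.25 in SKR6LR, but ABCC12 was dim in every line, with means of 4.21 to 4.46, so no comparison is drawn. ABCB1 and ABCB4 had 0.39 and -0.73 in SKR6LR, and the difference between these genes was not tested. ABCG5 with ABCG8, ABCA8 with ABCA9 and ABCA9 with ABCA6 stayed uncalled in all 3 comparisons.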

How the data were processed

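Total RNA from 12 cultures was amplified from an oligo-dT primer and labelled with biotin, per the labels' protocols. The authors deposited log2 values made with RMA, per the submitters' processing notes, which also name limma without its role (versions not given in the sources used here). RMA normalises quantiles over all arrays and compresses dim signals, and the number of arrays limits precision. Array medians ran from 5.74 to 5.77.

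Of 54675 probe sets 41097 had 1 gene in the platform annotation of 2016, 1801 several and 11777 none, and symbols were updated through RefSeq GRCh38.p14 (41043 matched). Each gene was fitted by lmFit and eBayes of limma 3.58.1 under R 4.3.3, with Benjamini-Hochberg adjustment over 19775 genes. The model had 4 line means and 1 spread per gene pooled over 12 arrays, with no filter. SEs of SKR6LR, whose arrays vary most, are thus on average narrower than its own spread would give. Those of comparisons without SKR6LR are on average wider, so fewer genes are called there. With only the compared arrays SKR6CA against SKR6-Vector gave 4 ABC genes higher and 16 lower, beside 2982 and 3647 of 19775 genes. Against SKR6 it gave 1 and 13, beside 2644 and 3825. The model was run on simulated data drawn with equal spread in every line. That setting cannot show the effect of the wider SKR6LR spread. The members and lists were chosen with earlier results of these data known. Array values are given for ABCB1, ABCG2, called ABCC genes and the 10 largest called differences without overlap per main comparison (5 for the vector), and at most 4 list genes are named (3 for SKR6CA). Alternatives were a replicate block, each array left out, cyclic loess, median centring, a variance trend with robust fitting, group weights, a fit of the compared arrays alone, leaving out dim genes, averaged probe sets, probe sets other than _x_at and _s_at, and the other control.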

Additional observations from a re-analysis of the deposited data

Results flagged for a closer look

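A probe set assigned to both ABCB4 and ABCB1, and so left out of the gene results above, had log2 values of 7.13, 6.07 and 6.67 in SKR6LR and 5.65, 5.54 and 5.60 in SKR6. The difference of 1.02 (SE 0.199, limma adjusted p = 0.000839 over all probe sets) makes it a signal in data that the comparisons did not use. It was -0.71 in SKR6CA against SKR6-Vector (limma adjusted p = 0.0229). Which of the genes it reports was not tested.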

How the results depend on the processing

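Of 1670 values of 80 gene results under the alternatives, 1581 kept their direction and their side of the threshold, 79 kept only the direction, 1 became significant and 9 changed sign. The replicate block, group weights, robust fitting, the compared arrays alone and leaving out dim genes could not change a difference, only its adjusted p. Nor could leaving out an array of a line outside the comparison, so the direction of many of these values was fixed in advance. With SKR6-Vector as the control ABCA5 in SKR6LR was -0.046 (limma adjusted p = 0.737). With SKR6 as the control for SKR6CA, ABCA2 was -0.0179, ABCA13 0.0008, ABCC2 -0.42, ABCC4 0.33, ABCB1 -0.0331 and ABCG2 0.13 (the last 2 not called with either control), and the count of ABC genes higher was 2 in place of 4. Without _x_at and _s_at probe sets ABCB4 was 0.10, ABCC11 0.13 and ABCC3 -0.20 (limma adjusted p = 0.0765) in SKR6CA against SKR6-Vector, where 2 genes were higher and 8 lower in place of 4 and 13, and 2 in place of 4 were lower in SKR6-Vector than in SKR6. That last count was 7 with group weights and 10 with only the compared arrays, and 2 to 5 with 1 array left out. Over all genes it was 2655 and became 4040 with group weights, 3889 with only the compared arrays and 1976 to 3238 with 1 array left out. The call of ABCB1 in SKR6LR was lost with group weights (limma adjusted p = 0.0577), with only the compared arrays (0.0946) and when any 1 of 6 arrays was left out (0.0535 to 0.137). Group weights gave 8 ABC genes higher and 13 lower in SKR6LR against SKR6, beside 3818 and 5284 of 19775 genes. The cause of these changes was not tested.

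The sample titles number the replicates without saying whether the numbers pair the cultures. The 18 same-numbered pairs had correlations of -0.0341 to 0.0948, and 0 were over 0.1. In 9 of the 18 the best match was the own number. These weak correlations do not settle whether the cultures were paired. With the replicate block SKR6LR against SKR6 gave 9 ABC genes higher and 15 lower, SKR6CA against SKR6-Vector 4 and 14, and SKR6-Vector against SKR6 10 and 3, with ABCE1 no longer called in the last (-0.16, limma adjusted p = 0.0776). Over all 19775 genes these counts were 4221 and 6023, 2232 and 2873, and 2334 and 2491. ABCA3 lost the call of its difference between effects (-0.24, limma adjusted p = 0.0757).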
